A study of Mus musculus with 2 samples.

Results

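Vascular smooth muscle cells of the normal mouse pancreas were examined in single-cell RNA sequencing of a library of GFP-positive cells. A cell was counted as a member if, per 10000 of its unique molecular identifiers (UMIs, each standing for 1 captured RNA molecule), it held at least 5 from Myh11, Lmod1 and Mustn1 together and at least 20 from Acta2, Tagln and Myl9 together, with at most 2 UMIs in all from Ptprc, Pecam1 and Cdh5, which mark leukocytes and endothelium. This rule found 97 of the 4616 normal cells with 500 or more genes, 1000 or more UMIs and no more than 10% of UMIs from mitochondrial genes, a share of 2.10% (exact binomial interval 1.71 to 2.56%). Over both libraries of the series 7189 cells passed. The members were thus chosen by their own expression, and every level of those genes given here is a description and not a test.

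The series holds 2 libraries, 1 per group, both from mice of genotype Rosa-mTmG;Fabp4-Cre. In these mice the Fabp4 promoter, known from fat cells and capillary endothelium, drives Cre, and Cre switches the Rosa26 reporter from a red to a green membrane protein for good, so that GFP marks a cell's lineage and not its present state. The normal library, labelled PSC (pancreatic stellate cells), was sorted for GFP from pancreata of mice aged 6 to 9 weeks. The tumour library, labelled CAF (cancer-associated fibroblasts), was sorted for GFP and podoplanin (PDPN) from orthotopic pancreatic tumours grown from the cancer line FC1245 for 21 days in mice aged 8 weeks at implantation. The labels give no number of mice, and tissue, digestion and gate differed together between the groups, so their parts in any difference cannot be told apart. There was no replicate of either group, so intervals here are exact 95% intervals that cover counting error only, and no difference between conditions was tested.

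Smooth muscle cells wrap arteries, arterioles and veins and set the width of the vessel by contracting. A rise of calcium activates myosin light chain kinase, which lets smooth muscle myosin pull on alpha-actin filaments, while nitric oxide and potassium channels relax the cell. Pericytes are their neighbours on capillaries, share many of their genes and grade into them along the vessel wall.

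The members had 1603 to 20301 UMIs per cell with a median of 7311 and a median of 2638 genes, and their counts were summed to 693839 UMIs and scaled to a total of 1000000 (CPM). They were set beside 3 other classes chosen by fixed marker thresholds. These were 28 pericytes (median 2969.5 UMIs per cell, 96242 in all) and 1388 fibroblasts (median 9190.5) of the normal library, and 274 contractile fibroblasts of the tumour library (median 23133.5), which met the Acta2, Tagln and Myl9 threshold and a collagen threshold but not the Myh11 one. A UMI in the pericyte sum is worth 10.4 CPM, so pericyte levels under about 50 CPM rest on a handful of molecules. The libraries held 36675424 UMIs in 5437 normal barcodes and 33285044 in the tumour library, and shared 4 barcodes, 0 of them members.

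The 6 markers of the label were found in most of the members. Myh11 (chr16:14194535-14291372, minus strand, GENCODE vM21 on GRCm38), the smooth muscle myosin heavy chain, was found in 97.9% of the members, Lmod1, an actin filament nucleator of muscle, in 92.8%, Acta2, smooth muscle alpha-actin, in 99.0%, and Myl9, the regulatory myosin light chain, in 100%. Mustn1, a small muscle protein, was found in 75.3%, and Rgs4, which shortens G protein signals, in 87.6%. At an equal depth of 3200 UMIs per cell, Myh11 was found in 97.7% of 88 smooth muscle cells, 8.33% of 12 pericytes, 0.149% of 1345 fibroblasts and 0.165% of the macrophages. Every class but the members had to hold fewer than 5 UMIs of Myh11, Lmod1 and Mustn1 per 10000. The low shares thus follow from the choice of cells and are no check of it. The border to pericytes was less sharp, since 53 of the 97 members also met the pericyte threshold, 4 met the fibroblast thresholds, and 22 held at least 2 UMIs of the pericyte channel genes Kcnj8 and Abcc9. The sum of Myh11, Lmod1 and Mustn1 had a median of 60.5 per 10000 UMIs, with 5.24, 6.66 and 6.70 in the members nearest to the threshold and 4.86, 4.09 and 3.69 in the nearest cells outside it. The sum of Acta2, Tagln and Myl9 had a median of 186.1, with 21.7, 23.3 and 23.6 just inside and 19.4, 17.4 and 17.2 just outside.

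**Figure D1:**
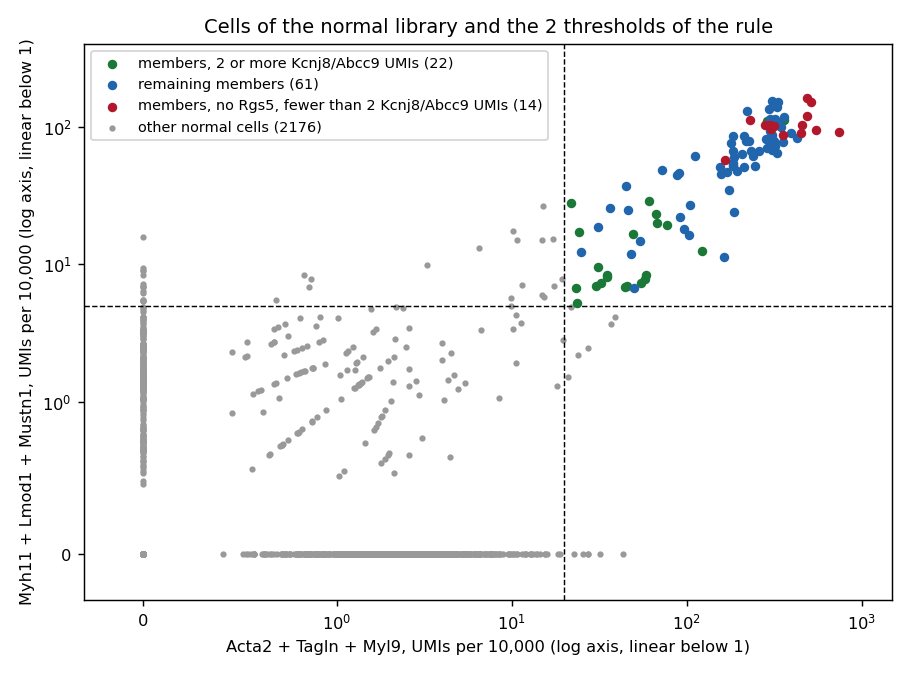
Each point is a normal cell with at most 2 Ptprc, Pecam1 and Cdh5 UMIs, placed by its Acta2, Tagln and Myl9 UMIs per 10000 (horizontal) and its Myh11, Lmod1 and Mustn1 UMIs per 10000 (vertical), both on log axes that are linear below 1, with the thresholds of 20 and 5 dashed. The 97 members fill the upper right corner; the 22 with at least 2 Kcnj8 and Abcc9 UMIs have a median of 8.92 on the vertical axis, and the 14 with no Rgs5 UMI and fewer than 2 of Kcnj8 and Abcc9 have a median of 102.

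RNA of genes that mark other cells was present in the members at low levels. The rule itself limited Ptprc, Pecam1 and Cdh5, and 91 members held no UMI of these genes. The T or NK cell and erythroid lists were at 0. The list of 18 fibroblast markers summed to 3811 CPM in the smooth muscle cells, 5767 CPM in the pericytes and 54659 CPM in the fibroblasts, and 96 of the 97 members held a UMI of it. Ctrb1, a digestive enzyme of acinar cells, was found in 57.7% of the smooth muscle cells at 125 CPM, 50.0% of the pericytes at 218 CPM, 59.4% of the fibroblasts at 149 CPM and 74.9% of the macrophages at 406 CPM, a level of acinar RNA spread over every class. The endothelial list summed to 1544 CPM in the smooth muscle cells, 4416 CPM in the pericytes and 31727 CPM in the endothelial cells. Fabp4, whose promoter drives the Cre, is on this list and made up most of the sums in the smooth muscle cells and pericytes. The part of these lists in the folds over pericytes was not tested. Xist UMIs alone were found in 32 members, Y-linked UMIs alone in 39, both in 4 and neither in 22, so that cells of both sexes of mice were present.

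**Figure D2:**
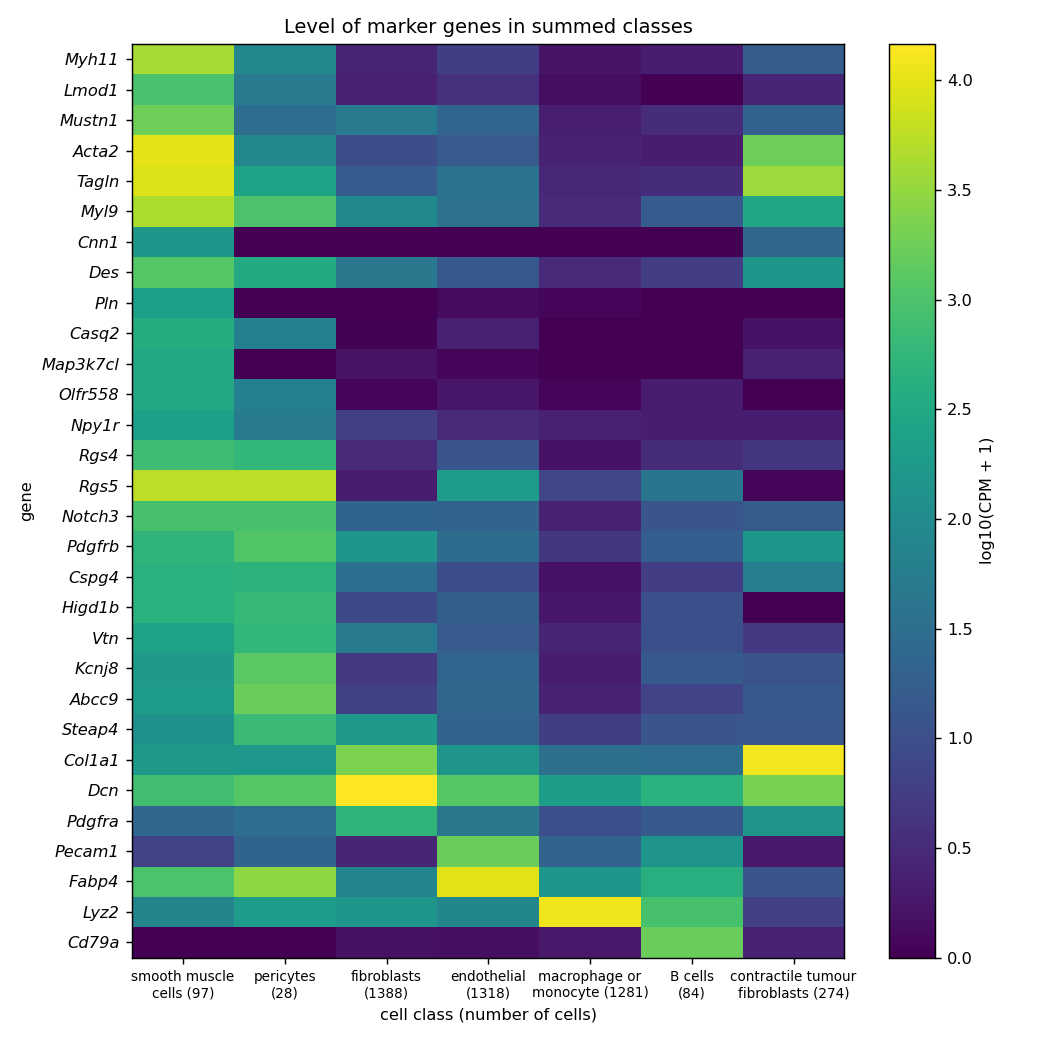
Levels of 30 genes (rows) in the summed counts of 7 cell classes (columns, number of cells in brackets) as log10(CPM + 1), with the smooth muscle cells on the left. Myh11, Lmod1, Acta2 and Tagln are bright in the smooth muscle cells and dim in the pericytes, Rgs5 and Notch3 are bright in both, and Dcn and Col1a1 are bright in the fibroblasts of either library.

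Most genes of the contractile machinery were higher in the smooth muscle cells than in pericytes. In the list of 20 smooth muscle identity genes, 18 were at least 2-fold higher than in pericytes and none lower, with a median log2 fold of 2.80. Here and below a gene counted as measured if it reached 50 CPM in either sum, and was called if its fold was at least 2 in either direction with an interval that excluded 1. Of the 4533 genes measured against pericytes, 7.5% were higher and 13.2% lower by this rule, and the median log2 fold of all genes with at least 20 CPM was -0.33. A gene that reached 50 CPM in 1 class only had to differ, so these counts describe the classes and support nothing further. Of the 20 genes 6 chose the members. The other 14 had 12 higher and a median log2 fold of 2.5.

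Acta2 stood at 9963 CPM (9730 to 10201) in the smooth muscle cells, 83.1 CPM in the pericytes and 8.75 CPM in the fibroblasts. Tagln, the actin-binding protein transgelin, stood at 8906 CPM in the smooth muscle cells, 259.8 CPM in the pericytes and 15.4 CPM in the fibroblasts. Myh11 stood at 4168 CPM (4018 to 4323) in the smooth muscle cells, 83.1 CPM in the pericytes and 1.69 CPM in the fibroblasts. All of these helped to choose the cells, and each was far higher in the members than in either class. In single members Acta2 ran from 0 through a median of 74.3 to 371 UMIs per 10000, and Myh11 from 0 through 34.6 to 105. Myl9 was less particular to the members, with 4501 CPM in the smooth muscle cells, 1008 CPM in the pericytes and 93.4 CPM in the fibroblasts.

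Several contractile genes outside the rule were higher too. Tpm1 and Tpm2, the tropomyosins that cover the actin filament, were 7.16-fold (5.63 to 9.24) and 7.17-fold (5.44 to 9.65) higher than in pericytes, and Myl6, the essential myosin light chain, was 5.57-fold (4.50 to 6.99) higher. Mylk, the myosin light chain kinase that starts contraction, stood at 1833 CPM in the smooth muscle cells, 717 CPM in the pericytes and 113 CPM in the fibroblasts, 2.56-fold (2.01 to 3.31) above pericytes. Cald1, caldesmon, was 2.51-fold (2.14 to 2.96) higher. The cytoplasmic forms did otherwise: Actb, beta-actin, was 1.71-fold higher (1.56 to 1.89), short of the call, and Myh9, the nonmuscle myosin heavy chain, was lower, with a fold of 0.446 (0.348 to 0.578). Of 24 measured actin and myosin genes 14 were higher and 1 was lower than in pericytes.

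Cnn1, Pln and Actg2 were each found in a minority of the members. Cnn1, calponin, had 159 CPM in the smooth muscle cells and no UMI in the pericytes or fibroblasts, but was found in 17.5% (10.6 to 26.6%) of the members and in none of the macrophages. Its level was at least 5.09-fold higher than in pericytes, set against a floor of 3 counts in their sum, and at least 719-fold higher than in fibroblasts. Pln, phospholamban, the brake on the calcium pump of the sarcoplasmic reticulum, had 226 CPM in the smooth muscle cells and no UMI in the pericytes or fibroblasts, and was found in 36.1% of the members. Actg2, gamma-actin of smooth muscle, best known from the gut wall, was found in 9 members, at 112 CPM in the sum. Of the 14 genes on a list of visceral smooth muscle markers 5 were at 0 in the members, Hhip among them, while Nkx2-3 stood at 190.2 CPM in the smooth muscle cells, 208 CPM in the pericytes and 96.1 CPM in the fibroblasts.

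Genes of the contractile apparatus are known targets of serum response factor, which binds a short A/T-rich element named the CArG box with the cofactor myocardin. Myocd, which encodes myocardin, stood at 63.4 CPM in 30.9% of the members and had no UMI in the pericytes, fibroblasts or endothelial cells. Srf stood at 53.3 CPM in the smooth muscle cells, at 0 in the pericytes and at 20.1 CPM in the fibroblasts. RefSeq promoter windows (build GRCm38.p6, 250 bases before to 50 after the start) were available for 34 of 40 contractile genes and were searched on both strands; those of Myh11, Tagln, Actb, Actg2, Map3k7cl and Nrip2 were not analysed here. The windows of 3 genes are shown because Acta2 and Myl9 chose the cells and Actg1, cytoplasmic gamma-actin, differed little between the normal classes (1078 CPM in the smooth muscle cells, 800.1 CPM in the pericytes and 861 CPM in the fibroblasts). Capitals mark a CArG box with at most 1 G or C in its A/T core, 5′ to 3′ on the gene's strand.
Acta2, chr19:34255324-34255623, minus strand: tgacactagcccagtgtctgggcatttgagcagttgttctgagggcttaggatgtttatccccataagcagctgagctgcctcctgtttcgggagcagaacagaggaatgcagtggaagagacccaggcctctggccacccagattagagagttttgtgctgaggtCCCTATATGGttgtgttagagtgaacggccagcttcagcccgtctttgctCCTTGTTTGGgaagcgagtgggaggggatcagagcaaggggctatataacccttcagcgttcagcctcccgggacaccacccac
Myl9, chr2:156775214-156775513, plus strand: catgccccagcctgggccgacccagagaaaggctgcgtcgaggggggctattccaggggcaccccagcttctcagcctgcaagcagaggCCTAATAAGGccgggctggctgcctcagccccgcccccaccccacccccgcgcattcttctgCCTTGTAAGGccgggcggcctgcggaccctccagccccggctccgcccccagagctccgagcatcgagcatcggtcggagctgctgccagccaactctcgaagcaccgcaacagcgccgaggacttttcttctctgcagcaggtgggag
Actg1, chr11:120348446-120348745, minus strand: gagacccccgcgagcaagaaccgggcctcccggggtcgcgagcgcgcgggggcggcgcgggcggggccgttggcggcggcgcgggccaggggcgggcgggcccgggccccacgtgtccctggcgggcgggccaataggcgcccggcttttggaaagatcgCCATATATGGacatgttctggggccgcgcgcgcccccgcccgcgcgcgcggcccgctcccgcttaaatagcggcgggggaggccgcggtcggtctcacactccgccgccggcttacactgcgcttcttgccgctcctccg
The boxes of Acta2 lay 84 and 34 bases before the start, those of Myl9 161 and 99 bases and that of Actg1 90 bases. An exact CArG box occurred in 6 of the 34 genes (17.6%), namely Actc1, Myl9, Acta1, Cnn2, Myl6 and Actg1, and in 1.81% of all 27025 genes with a window. Of the 6, Actc1 and Acta1 were hardly expressed in the smooth muscle cells, at 4.32 and 8.65 CPM. With 1 G or C allowed, a search added after the data were seen, it occurred in 10 of the 34 (29.4%), Acta2 included, and in 11.3% of all genes. A match is only a description of these letters.

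The cables that anchor the filaments were also higher in the smooth muscle cells. Of 28 measured genes of focal adhesions, dense bodies and intermediate filaments, 18 were higher and none lower than in pericytes, with a median log2 fold of 1.76. Des, the muscle intermediate filament desmin that is also used to mark stellate cells, stood at 1160.2 CPM in the smooth muscle cells, 353 CPM in the pericytes and 45.8 CPM in the fibroblasts, 3.28-fold (2.33 to 4.78) above pericytes. Flna, the actin crosslinker filamin A, was 3.34-fold (2.38 to 4.83) higher, and Dstn, the actin-severing protein destrin, was 6.17-fold (4.62 to 8.43) higher. Crip1, a small LIM protein, stood at 9459 CPM in the smooth muscle cells, 1662 CPM in the pericytes and 1577 CPM in the fibroblasts. Pdlim3, a protein of alpha-actinin anchors, had 172 CPM in the smooth muscle cells and 1 UMI in the pericytes, a fold of 16.5 (2.91 to 657). Synpo2, another actin-bundling protein, differed little from pericytes, at 196 CPM in the smooth muscle cells and 218 CPM in the pericytes.

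Genes that control the myosin phosphatase, which ends contraction, were more often higher than lower. Of 18 measured genes 4 were higher and 1 lower than in pericytes, beside 7.5% higher and 13.2% lower of all measured genes. Ppp1r14a, the phosphatase inhibitor CPI-17, stood at 735 CPM in the smooth muscle cells, 229 CPM in the pericytes and 46.7 CPM in the fibroblasts. Ppp1r12b, a targeting subunit of the phosphatase, was 7.68-fold (3.25 to 23.9) above pericytes, and the kinase gene Rock1 2.51-fold (1.68 to 3.93).

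Genes of calcium handling were more often higher than lower in the smooth muscle cells. Of 22 measured calcium genes 9 were higher and 2 lower than in pericytes, and 16 of 20 were higher than in fibroblasts with none lower. The background against fibroblasts was 17% higher and 18.4% lower of 4121 genes. Casq2, calsequestrin, which buffers calcium inside the sarcoplasmic reticulum, stood at 373 CPM in the smooth muscle cells, 62.3 CPM in the pericytes and 0.0735 CPM in the fibroblasts, 5.99-fold (2.71 to 16.5) above pericytes. It was found in 75.3% of the members. The pumps that refill the store were higher too, with Atp2a2 at 656 CPM in the smooth muscle cells and 166 CPM in the pericytes and Atp2a3 at 117 CPM in the smooth muscle cells and 10.4 CPM in the pericytes. Hrc, a calcium-binding partner of the store, had 87.9 CPM in the smooth muscle cells and 1 UMI each in the pericyte and fibroblast sums. Trpc6, a receptor-operated cation channel, had 43.2 CPM in the smooth muscle cells and 208 CPM in the pericytes, a fold of 0.208 (0.114 to 0.387), and the store release channel Itpr2 had a fold of 0.159 (0.0846 to 0.299). Cacna1c, the pore of the L-type calcium channel, stood at 143 CPM in the smooth muscle cells, 177 CPM in the pericytes and 8.97 CPM in the fibroblasts, and the interval of its fold over pericytes, 0.480 to 1.44, held 1.

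Potassium channels hold the membrane potential and oppose contraction. Of 15 measured genes of potassium and chloride channels 6 were higher and 4 lower than in pericytes, and 2 of the 4, Kcnj8 and Abcc9, chose the pericytes. The voltage-gated channel genes Kcnab1 and Kcna5 had 169 and 121 CPM in the smooth muscle cells and no UMI in the pericytes, folds of at least 5.41 and 3.88. Kcnmb1, the beta subunit that tunes the large calcium-activated channel to calcium, had 69.2 CPM in the smooth muscle cells, 10.4 CPM in the pericytes and 0.0735 CPM in the fibroblasts. The pore of the ATP-sensitive channel, Kcnj8, had 182 CPM in the smooth muscle cells, 1247 CPM in the pericytes and 3.90 CPM in the fibroblasts, and its subunit Abcc9 had 200.3 CPM in the smooth muscle cells, 1714 CPM in the pericytes and 5.66 CPM in the fibroblasts. They lie side by side on the minus strand (chr6:142564837-142571614 and chr6:142587862-142702315, GENCODE vM21 on GRCm38). In the 75 members with fewer than 2 UMIs of the pair, Kcnj8 stood at 5.09 CPM and Abcc9 at 18.7 CPM, levels that this choice of cells itself held low. Kcnk3, an acid-sensitive background channel, was similar, at 109.5 CPM in the smooth muscle cells and 83.1 CPM in the pericytes.

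Genes of the relaxing pathway of nitric oxide and cyclic GMP were mostly higher than in fibroblasts. Of 17 measured genes 2 were higher and 2 lower than in pericytes, beside 7.5% higher and 13.2% lower of all measured genes. Against fibroblasts 15 of 17 were higher and 1 lower. Gucy1a3 and Gucy1b3, the subunits of the enzyme that senses nitric oxide, stood at 1003 and 588 CPM in the smooth muscle cells, 966 and 519.5 CPM in the pericytes and 21.0 and 42.0 CPM in the fibroblasts. The intervals of their folds over pericytes, 0.835 to 1.30 and 0.842 to 1.55, held 1. Mrvi1, which ties cyclic GMP to the calcium release channel, was 4.52-fold (1.90 to 14.1) above pericytes.

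Some receptors for vasoactive signals were higher and others lower in the smooth muscle cells than in pericytes. Of 52 such genes found, 15 were at 0 in the members, and of 17 measured 5 were higher and 6 lower than in pericytes. P2rx1, the channel by which the muscle senses ATP from sympathetic nerves, had 177 CPM in 41.2% of the smooth muscle cells and no UMI in the pericytes, a fold of at least 5.69. Npy1r, the neuropeptide Y receptor through which sympathetic nerves constrict vessels, stood at 225 CPM in the smooth muscle cells, 52.0 CPM in the pericytes and 5.22 CPM in the fibroblasts, 4.33-fold (1.82 to 13.5) above pericytes. A pair of olfactory receptor genes stood out: Olfr558 had 331 CPM in 74.2% of the smooth muscle cells, 62.3 CPM in the pericytes and 0.147 CPM in the fibroblasts, and Olfr78 had 90.8 CPM in 38.1% of the smooth muscle cells and no UMI in the pericytes, fibroblasts, endothelial cells or contractile tumour fibroblasts.

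Endothelin receptors differed from each other. Ednra, the receptor for contraction, stood at 223 CPM in the smooth muscle cells, 259.8 CPM in the pericytes and 26.8 CPM in the fibroblasts, with a fold over pericytes of 0.860 (0.561 to 1.37). Ednrb stood at 369 CPM in the smooth muscle cells, 1787 CPM in the pericytes and 374 CPM in the endothelial cells, a fold over pericytes of 0.206 (0.170 to 0.252). Agtr1a, the angiotensin II receptor, had 86.5 CPM in the smooth muscle cells and 384 CPM in the pericytes, and Adra2a, an adrenaline receptor, 60.5 CPM in the smooth muscle cells and 197 CPM in the pericytes.

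**Figure D3:**
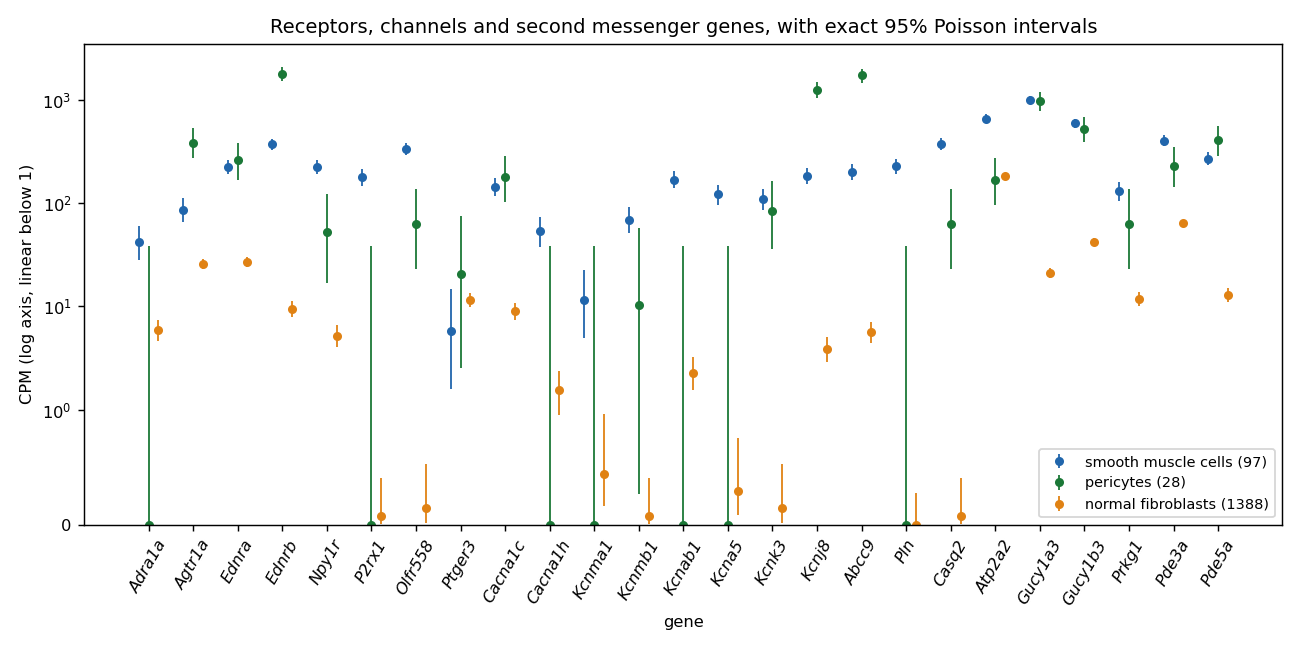
Levels of 25 receptor, channel and second messenger genes (horizontal) in CPM on a log axis that is linear below 1, for the 97 smooth muscle cells, 28 pericytes and 1388 normal fibroblasts, with exact 95% Poisson intervals as bars. P2rx1, Pln and Kcnab1 lie above 100 CPM in the smooth muscle cells and at 0 in the pericytes, Ednrb, Agtr1a, Kcnj8 and Abcc9 lie higher in the pericytes, and Gucy1a3 and Gucy1b3 nearly coincide.

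Of 15 measured regulators of G protein signals 2 were higher and 2 lower than in pericytes, beside 7.5% higher and 13.2% lower of all measured genes. Rgs5, often used as a pericyte marker, stood at 5614 CPM in 84.5% of the smooth muscle cells, 5538 CPM in the pericytes and 1.18 CPM in the fibroblasts, with a fold over pericytes of 1.01 (0.926 to 1.11). Rgs4, the marker given with these cells, stood at 732 CPM in the smooth muscle cells and 582 CPM in the pericytes, and its interval of 0.954 to 1.69 held 1. Rgs7bp, which carries RGS proteins to the membrane, had 308 CPM in the smooth muscle cells and 1 UMI in the pericytes, a fold of 29.7 (5.27 to 1178). Rgs5 (chr1:169655501-169695813, plus strand) and Rgs4 (chr1:169741477-169747642, minus strand) are neighbours in the same annotation. At a depth of 3200 UMIs Rgs5 was found in 77.3% of the smooth muscle cells, 83.3% of the pericytes and 0.741% of the macrophages.

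Of 29 measured transcription factors of smooth muscle 5 were higher and 5 lower than in pericytes. Mef2c, a muscle factor, stood at 1176 CPM in the smooth muscle cells, 374 CPM in the pericytes and 48.1 CPM in the fibroblasts, 3.14-fold (2.25 to 4.52) above pericytes. Notch3, the receptor through which endothelium instructs mural cells, was found in every member, at 1.34 through 9.14 to 44.8 UMIs per 10000, and its sums of 882 CPM in the smooth muscle cells and 883 CPM in the pericytes were alike beside 21.4 CPM in the fibroblasts. Its target Hey2, an arterial factor, had 111 CPM in the smooth muscle cells and 20.8 CPM in the pericytes, a fold of 5.34 (1.43 to 44.9), and the feedback gene Nrarp a fold of 3.77 (1.58 to 11.8). Heyl, another target, was at 196 CPM in the smooth muscle cells and 301 CPM in the pericytes, and its interval held 1. Pdgfrb, the receptor that recruits mural cells, stood at 525 CPM in the smooth muscle cells, 1070.2 CPM in the pericytes and 153 CPM in the fibroblasts. Its fold over pericytes was 0.490 (0.393 to 0.616). Pdgfa, a platelet-derived growth factor gene, was 1.52-fold (1.07 to 2.22) higher than in pericytes, short of the call.

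Most genes of the matrix between cells were lower in the smooth muscle cells than in fibroblasts. Of 18 measured elastic fibre genes 16 were lower than in fibroblasts and none higher, and of 30 measured interstitial matrix genes 22 were lower and 4 higher, 5 of the 30 being genes that chose the fibroblasts. The 4 were Sparcl1, at 2947 CPM in the smooth muscle cells and 989 CPM in the fibroblasts, Igfbp5, Aspn and Cspg4. Eln, elastin, stood at 535 CPM in the smooth muscle cells, 72.7 CPM in the pericytes and 283 CPM in the fibroblasts, 7.35-fold (3.53 to 18.4) above pericytes and 1.89-fold (1.69 to 2.10) above fibroblasts. Fbn1, fibrillin, on which elastin is laid, had 90.8 CPM in the smooth muscle cells, 125 CPM in the pericytes and 1692 CPM in the fibroblasts. Col4a1 and Col4a2, basement membrane collagens, stood at 1394 and 749 CPM in the smooth muscle cells and 2909 and 1818 CPM in the pericytes, folds of 0.479 (0.419 to 0.549) and 0.412 (0.347 to 0.492). Itga8, an integrin of contractile cells, and Ntn4, a laminin-binding netrin, had 99.4 and 235 CPM in the smooth muscle cells and 1 UMI each in the pericytes. Of 33 measured genes of basement membrane and integrins 11 were higher and 7 lower than in pericytes.

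Among the genes furthest above pericytes were Rcan2, an inhibitor of calcineurin, with 324 CPM in the smooth muscle cells and 10.4 CPM in the pericytes, Cd9, a tetraspanin, with 564 CPM in the smooth muscle cells and 31.2 CPM in the pericytes, and Map1b, a microtubule protein, with 399 CPM in the smooth muscle cells and 20.8 CPM in the pericytes. Nrip2 had 458 CPM in the smooth muscle cells, no UMI in the pericytes and 0.147 CPM in the fibroblasts. Of 8 measured growth factors that act on vessels 5 were higher and 1 was lower than in pericytes. The most abundant of the list in the smooth muscle cells were Pgf, placental growth factor, and Fgf1, at 160.0 and 129.7 CPM. Neither had a UMI in the pericytes, so their folds were at least 5.13 and 4.16, short of the genes furthest above pericytes. Postn, periostin, was lower, at 134 CPM in the smooth muscle cells and 779 CPM in the pericytes. Against fibroblasts the lowest called gene outside the class rules was Pi16, a marker of adventitial fibroblasts, with 5.77 CPM in the smooth muscle cells and 1114 CPM in the fibroblasts. Fabp4, whose promoter drives the Cre, stood at 977 CPM in 66.0% of the smooth muscle cells, 2826 CPM in the pericytes, 74.8 CPM in the fibroblasts and 9483 CPM in the endothelial cells. At equal depth Fabp4 was found in 54.5% of the smooth muscle cells, 7.36% of the fibroblasts and 13.6% of the macrophages.

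**Figure D4:**
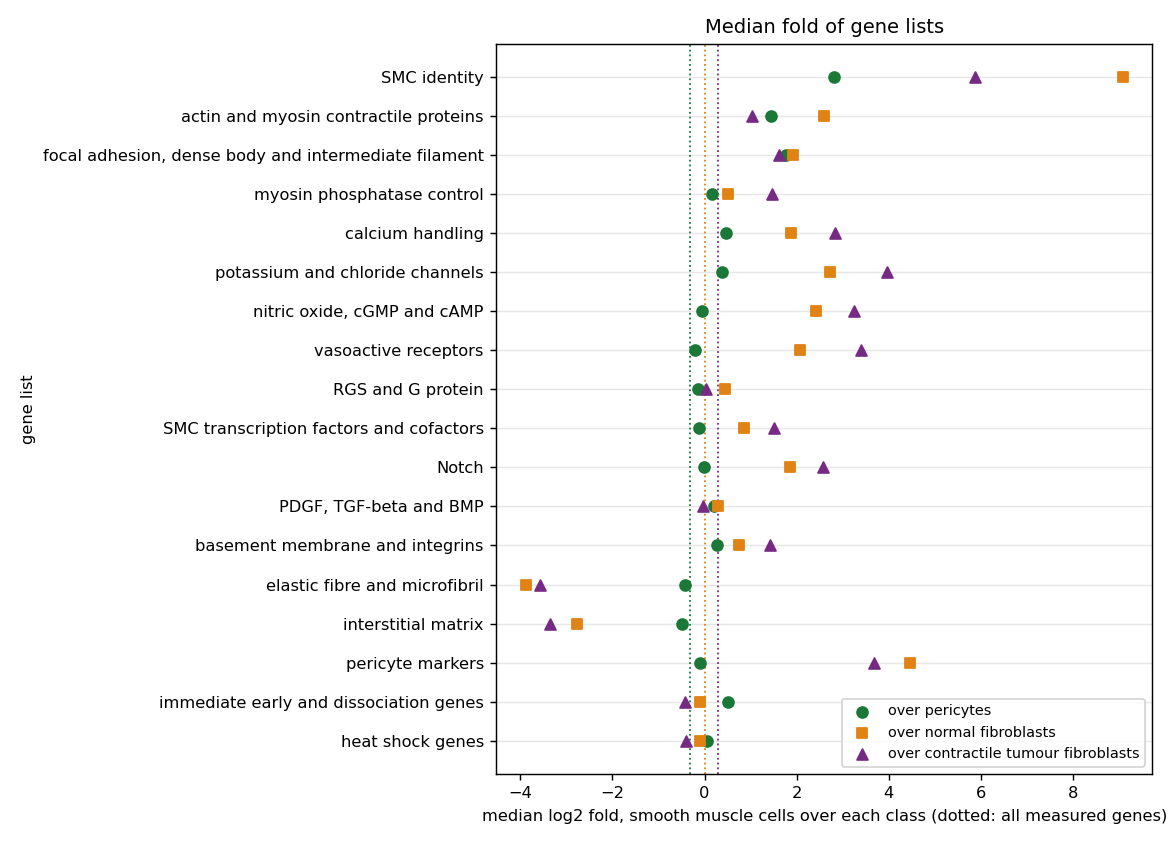
Median log2 fold of 18 gene lists (rows) in the smooth muscle cells over pericytes, over normal fibroblasts and over contractile tumour fibroblasts (points), with the median of all genes of at least 20 CPM dotted at -0.33, 0.01 and 0.30. Smooth muscle identity and adhesion genes lie to the right of the line in every comparison, relaxation and Notch genes lie near it over pericytes and to its right over either fibroblast class, and the elastic fibre and interstitial matrix lists lie to its left over both fibroblast classes.

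Smooth muscle identity and calcium handling genes were higher in the smooth muscle cells than in the contractile fibroblasts of the tumour, and most interstitial matrix genes were lower. All 20 smooth muscle identity genes, 6 of which chose the members, were at least 2-fold higher in the smooth muscle cells, beside a background of 26.3% higher and 20.2% lower among 4054 measured genes. Acta2 stood at 9963 CPM in the smooth muscle cells and 1797 CPM in the contractile tumour fibroblasts, a fold of 5.55 (5.38 to 5.71), and Tagln at 8906 CPM in the smooth muscle cells and 3549 CPM in the contractile tumour fibroblasts, a fold of 2.51 (2.44 to 2.58). Both genes chose both classes. Myh11 was further apart, at 4168 CPM in the smooth muscle cells and 16 CPM in the contractile tumour fibroblasts, but its level set which class a cell could enter. Des, which chose neither, was 7.35-fold (6.69 to 8.06) higher, Mylk 5.95-fold (5.54 to 6.39) and Ppp1r14a 105-fold (77.4 to 145).

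Some cytoskeletal genes were lower in the smooth muscle cells, and of 25 measured actin and myosin genes 13 were higher and 7 lower. Actg1 stood at 1078 CPM in the smooth muscle cells and 2817 CPM in the contractile tumour fibroblasts, a fold of 0.383 (0.355 to 0.412), the nonmuscle tropomyosin Tpm4 had a fold of 0.338 (0.292 to 0.390), and Csrp2, a LIM protein, had 282 CPM in the smooth muscle cells and 1501 CPM in the contractile tumour fibroblasts. Beta-actin was level, with a fold of 1.02 (0.989 to 1.04). Some signalling genes were further apart. Rgs5 had 5614 CPM in the smooth muscle cells and 0.153 CPM, 1 UMI, in the contractile tumour fibroblasts, Notch3 had 882 CPM in the smooth muscle cells and 16 CPM in the contractile tumour fibroblasts, and Gucy1a3 1003 CPM in the smooth muscle cells and 10.1 CPM in the contractile tumour fibroblasts. Of 19 measured calcium genes 16 were higher and none lower. Of 34 measured interstitial matrix genes 26 were lower, and 4 higher. Tnc, tenascin C, had 1.44 CPM in the smooth muscle cells and 1794 CPM in the contractile tumour fibroblasts, and Timp1, a protease inhibitor, 2.88 CPM in the smooth muscle cells and 3124 CPM in the contractile tumour fibroblasts. Eln, higher than in pericytes, was here lower, at 535 CPM in the smooth muscle cells and 1226 CPM in the contractile tumour fibroblasts.

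The same rule found 9 of 2573 cells in the tumour library, a share of 0.350% (0.160 to 0.663%), beside 2.10% in the normal library. The tumour gate asked for podoplanin, so the difference in share cannot be told apart from the sort. These 9 cells were unlike the normal members in several ways. Myh11 summed to 145 UMIs in 8 of them, and ran from 0 through 14 to 47 per cell, but Rgs4 and Rgs5 had no UMI in any. Col1a1 summed to 2363 UMIs in 8 cells, Pdgfra was found in 6, Notch3 had 1 UMI, and 7 of the 9 also met the fibroblast thresholds.

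The normal members were not alike among themselves, and Myh11 ran against several pericyte genes. Across the 97 cells Myh11 per 10000 UMIs went with Acta2 (Spearman correlation 0.816) and Tagln (0.818), and against Rgs5 (-0.554), Kcnj8 (-0.593), Steap4 (-0.634) and Vtn (-0.659). Cnn1 went against Rgs5 (-0.558), but less against Kcnj8 (-0.160) and Steap4 (-0.249). These are descriptions over cells of 1 library in which Myh11 also went with depth (0.556), and Acta2 and Tagln share the rule with it. Acta2, Tagln, Rgs5 and Fos were among the 8 genes that varied most between members at equal depth, as was Dcn, a fibroblast proteoglycan found in 20.6% of the members (median 7311 UMIs per cell) and in 20.2% of the macrophages (median 8566), which should lack it. At equal depth Dcn was found in 12 of 88 members, with up to 46 UMIs in 1 cell, and 4 members met the fibroblast thresholds.

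A pair of subsets, chosen after these values were seen, describes this variation. One subset is the 22 members with at least 2 Kcnj8 and Abcc9 UMIs, and another the 14 members with no Rgs5 UMI and fewer than 2 of Kcnj8 and Abcc9, which leaves 61. The median cell had 4016 UMIs in the 22 cells, 8800.5 in the 14 and 7596 in the 61, and the median mitochondrial share was 2.5% in the 22, 6.01% in the 14 and 4.78% in the 61, with shares above 5% in 3 of the 22, 11 of the 14 and 26 of the 61. The part of depth and of the mitochondrial share in these differences was not tested. Cells with Xist UMIs only and with Y-linked UMIs only were found in each subset, 5 and 9 of the 22, 8 and 5 of the 14 and 19 and 25 of the 61.

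In the 22 cells with at least 2 Kcnj8 and Abcc9 UMIs many contractile genes were lower than in all other members, and several vasoactive receptors were higher. Acta2 per 10000 UMIs ran from 0 through 12.6 to 161 in these cells, and from 2.47 through 81.6 to 185 in the remaining members. Mustn1 was found in 5 of the 22 and in 54 of the 61. Steap4, a metalloreductase, stood at 652 CPM in the 22 cells and 39.0 CPM in all other members, a fold of 16.7 (10.3 to 28.1), Ednrb at 1238 CPM in the 22 cells and 215 CPM in all other members, and Pdgfrb at 1554 CPM in the 22 cells and 343 CPM in all other members. Dcn was at 19.2 CPM in the 22 cells, 2 of which held a UMI, and 958 CPM in all other members, 18 of 75 of which held one. Against all other members, 13.2% of 4139 measured genes were higher in the 22 cells and 6.19% lower. Of 20 smooth muscle identity genes none was higher and 11 were lower, 7 of them among the 14 that did not choose the members. Of 18 measured vasoactive receptors 9 were higher and 3 lower. The immediate early genes, which also respond to tissue dissociation, had 15 of 23 lower and none higher, with Fos at 1103 CPM in the 22 cells and 3994 CPM in all other members and Atf3 at 9.59 CPM in the 22 cells and 697 CPM in all other members.

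In the 14 cells with no Rgs5 UMI and fewer than 2 of Kcnj8 and Abcc9 a part of the contractile genes was higher than in all other members, which include the 22. Of 24 measured actin and myosin genes 7 were higher and 2 lower, with 5 of the 7 outside the members' rule, and of 20 smooth muscle identity genes 7 were higher and 1 was lower, with 4 of the 7 outside it. Acta2 per 10000 UMIs ran from 57.2 through 167 to 371, so that it overlapped with the remaining members, and Myh11 from 32.0 through 58.5 to 105. Acta2 was 2.22-fold (2.11 to 2.33) and Tpm2 2.67-fold (2.47 to 2.89) above the sum of all other members. Cnn1 was found in 9 of the 14 cells, 1 of the 22 and 7 of the 61, and its sum was 619 CPM in the 14 cells and 54.8 CPM in all other members, a fold of 11.3 (7.38 to 17.7). Actg2 was found in 6 of the 14, 1 of the 22 and 2 of the 61, at 572 CPM in the 14 cells and 8.83 CPM in all other members, and Pln in 13 of the 14, 2 of the 22 and 20 of the 61. Art3, Higd1b, Vtn and Steap4 had 15.7, 54.8, 23.5 and 7.84 CPM in the 14 cells, 173, 491, 203 and 47.6 CPM in the 61 and 787, 796, 758 and 652 CPM in the 22. Steap4 was found in 1 of the 14, 10 of the 61 and 18 of the 22. Casq2 went with the low genes, at 157 CPM in the 14 cells and 422 CPM in all other members. Of 3782 measured genes 5.31% were higher in the 14 cells and 8.06% lower, and of 20 pericyte markers, with Rgs5, Kcnj8 and Abcc9 that chose the subset among them, none was higher and 12 were lower. Gucy1b3 was lower, at 227 CPM in the 14 cells and 669 CPM in all other members, while Gucy1a3, its partner, was at 862 CPM in the 14 cells and 1035 CPM in all other members.

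**Figure D5:**
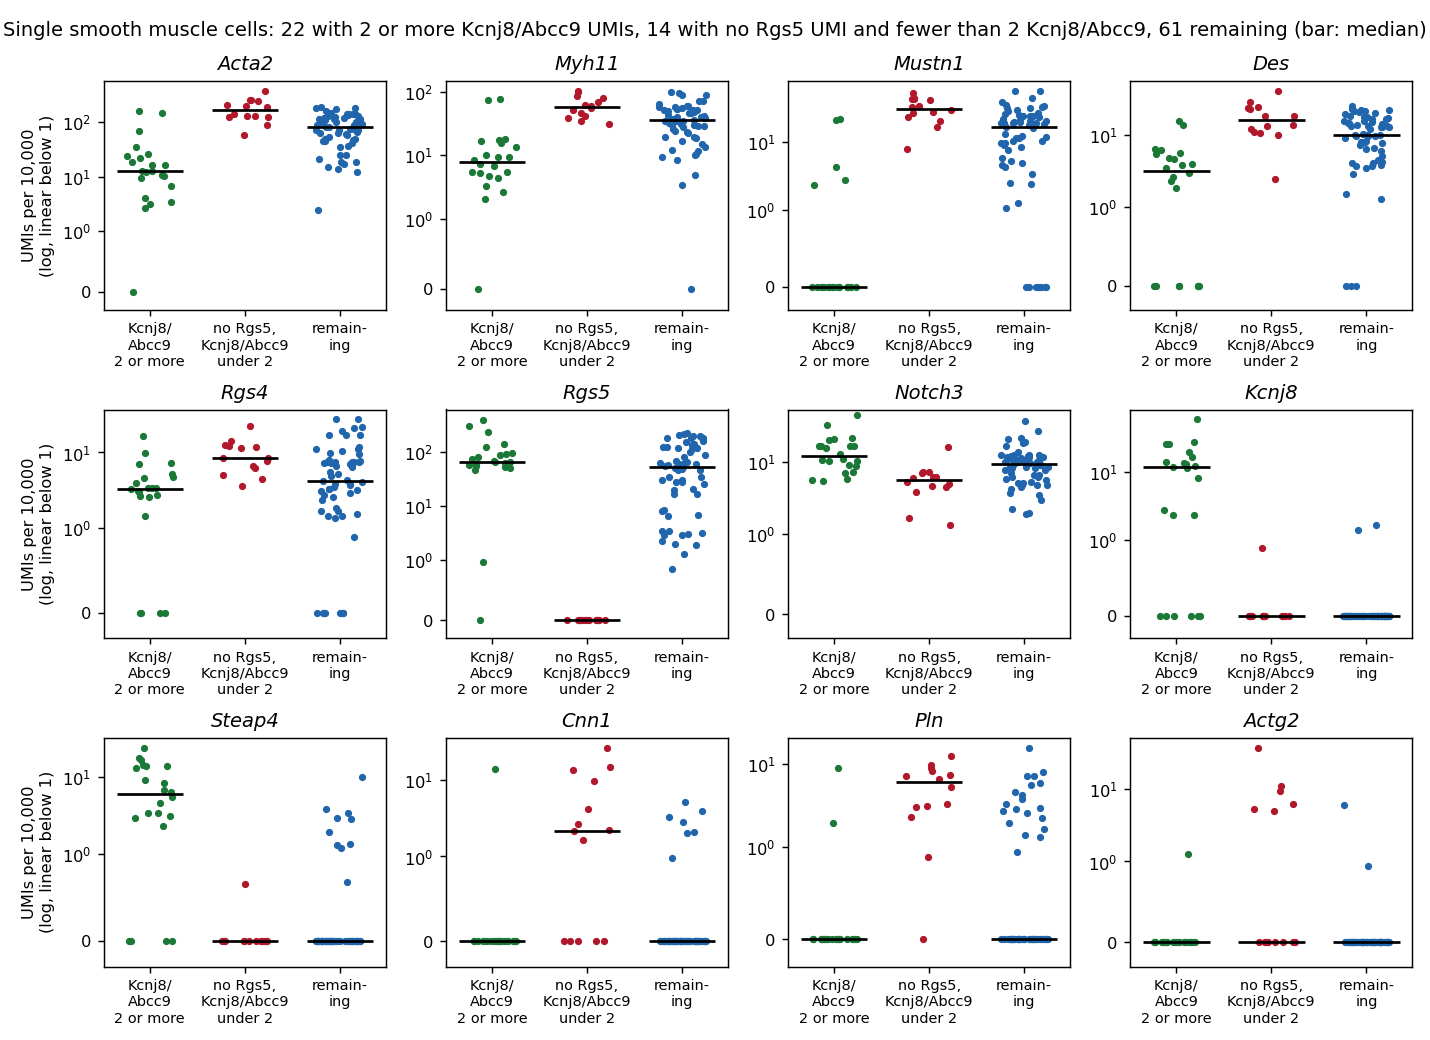
Each point is 1 smooth muscle cell, with UMIs per 10000 of 12 genes on log axes that are linear below 1, for the 22 cells with at least 2 Kcnj8 and Abcc9 UMIs, the 14 with no Rgs5 UMI and fewer than 2 of Kcnj8 and Abcc9, and the 61 remaining (bars are medians). Acta2, Myh11 and Mustn1 are highest in the 14 cells and lowest in the 22, Notch3 is found in all 97 cells, and Cnn1 and Actg2 are found in 17 and 9 cells.

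Several contractile genes were higher in members with a larger share of mitochondrial UMIs. Of the 97 members 57 had at most 5% mitochondrial UMIs and 40 had more. Cnn1 had 107 UMIs in 15 of the 40 cells above 5% and 3 UMIs in 2 of the 57 others, and all 78 Actg2 UMIs lay in 9 cells above 5%. Acta2 stood at 14430.0 CPM in the cells above 5% and 6490 CPM in the others, and Rgs5 at 2935 CPM in the cells above 5% and 7697 CPM in the others. A further 6 cells met the rule but for more than 10% mitochondrial UMIs and were left out. Between members with Xist UMIs only and with Y-linked UMIs only the levels of these genes lay closer. Acta2 stood at 11104 CPM in the Xist cells and 10232 CPM in the Y-linked cells, Rgs5 at 5146 and 6206 CPM, and Cnn1 at 173 and 142 CPM. The levels were not the same: Myh11 stood at 4027 CPM (3782 to 4285) in the Xist cells and 4880 CPM (4635 to 5135) in the Y-linked cells. Mustn1 stood at 2185 CPM (2005 to 2376) and 1695 CPM (1551 to 1848), and Kcnj8 at 173 and 92.3 CPM.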

How the data were processed

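The authors deposited 1 matrix of raw, unscaled UMI counts per library, limited to barcodes already called as cells, from Cell Ranger 3.1.0 and mm10 (per the file headers and the submitters' processing notes). All 27998 genes were used; neither GFP nor Cre is among them. Per the labels' protocols the normal digest used pronase with collagenase P, the tumour digest used collagenase IV with dispase and a trypsin step, and both used DNase.

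The members, the gene lists and the comparisons were chosen with earlier results of these data known. Pericytes had at least 5 Kcnj8, Abcc9, Higd1b and Vtn UMIs per 10000 and at most 2 Pdgfra and Dpt UMIs. Fibroblasts had at least 20 of Col1a1, Col1a2 and Col3a1 and at least 5 of Pdgfra, Dcn and Lum per 10000, and contractile tumour fibroblasts met the same collagen threshold and the members' threshold on Acta2 and its partners; these 3 classes had at most 2 Ptprc, Pecam1 and Cdh5 UMIs. Endothelial cells had at least 3 Pecam1 and Cdh5 UMIs and none of Ptprc, and macrophages at least 1 Ptprc UMI and 5 of Lyz2, Csf1r and Cd68. No class but the members reached 5 of Myh11, Lmod1 and Mustn1 per 10000. Counts were summed per class to CPM (scaled to 1000000), with exact 95% Poisson intervals, exact intervals of a ratio of 2 Poisson counts for folds and Clopper-Pearson intervals for shares. Where a class's sum held no count, 3 counts stood in for it and the fold is a bound. A list's counts cover its genes with at least 50 CPM in either class, its median those with at least 20 CPM. Of 722 genes on 36 lists 719 were found. For shares at equal depth, cells were thinned to 3200 UMIs, which kept 88 of the 97 members, 12 of the 28 pericytes and 1345 of the 1388 fibroblasts. Doublets were kept; removing cells that Scrublet marked (2.19% of the normal cells, 4 of them members) is an alternative. It marked 0.0777% of the tumour cells, too few to have worked, so the 53 top scores were removed there.

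Named genes are the rule genes and markers, per comparison the 12 highest and 12 lowest called genes detected in 25% or more of the cells where they are higher, the extreme and most abundant members of each list and the 8 most variable genes. Other genes in the text, such as Kcna5, Olfr78, Myocd and Srf, were chosen after their values were seen. Positions came from GENCODE vM21 by Ensembl identifier (27645 genes matched), promoter sequences from RefSeq on GRCm38.p6. The calculation was tested on simulated data, where some unchanged genes were still called against the shallow pericytes, since the calls are not adjusted over genes. Python 3.11.15, numpy 2.4.6, scipy 1.17.1, pandas 2.3.3, scanpy 1.11.5 and matplotlib 3.10.9 were used.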

Additional observations from a re-analysis of the deposited data

How the results depend on the processing

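No paired analysis was possible because each group is 1 library, and leaving out a replicate was not possible for the same reason. The number of members, 97, became 57 with strict cell filters (1000 genes, 2000 UMIs, no more than 5% mitochondrial) and 44 without members at the pericyte threshold. Genes higher than in pericytes, 340, became 93 in cells with Xist UMIs only (32 members against 5 pericytes) and 213 in cells with Y-linked UMIs only (39 against 11). Genes lower than in pericytes, 599, became 378 with strict filters, 357 from 100 CPM and 339 in cells with Xist only. Genes higher than in fibroblasts, 700, became 436 from 100 CPM, and genes lower, 758, became 1251 from 20 CPM and 478 from 100 CPM. Genes higher than in contractile tumour fibroblasts, 1068, became 1932 from 20 CPM and 538 from 100 CPM, and genes lower, 819, became 1239 from 20 CPM. These settings change which cells enter, and how many, or the level of entry. The strict filters also left out the 40 members above 5% mitochondrial UMIs, in which Acta2 stood at 14430 CPM, beside 6490 CPM in the other 57. The causes of these changes were not tested.

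Of 1357 fold values of named genes under the alternatives 5 changed sign in a gene that was called in the main run. Without members at the pericyte threshold the log2 folds over fibroblasts were -0.64 for Kcnj8 and -0.54 for Vtn, and over contractile tumour fibroblasts -2.15 for Kcnj8. Without members with at least 2 Kcnj8 and Abcc9 UMIs, an alternative chosen after the data were seen, that of Kcnj8 was -1.13. With strict filters Cnn1 was at -1.57 over contractile tumour fibroblasts, a value that rests on 3 UMIs in the members. The causes were not tested. Of the other values 1142 stayed within the counting interval of the main fold and 210 lay outside it. Among these, a change of sign in a gene that was not called was not counted apart. Median-ratio scaling shifted log2 folds by -0.09 over pericytes, 0.04 over fibroblasts and 0.03 over contractile tumour fibroblasts. For 16 genes no fold over pericytes could be given in cells with Xist only, nor for 2 in cells with Y-linked UMIs only or for Cnn1 with strict filters (over fibroblasts too), and the comparison with the tumour was not run in cells with Y-linked UMIs only. With 28 shallow pericytes, a gene under about 31.2 CPM there, 3 counts, cannot be told from 0.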

Other observations

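Several gene groups beyond contraction were measured in the smooth muscle cells. Genes of modulated smooth muscle, which dedifferentiating cells are known to raise, were mostly lower than in fibroblasts. All 14 measured against normal fibroblasts were lower in the smooth muscle cells, 3 of them genes that chose the fibroblasts, beside 18.4% of all genes. Against contractile tumour fibroblasts 19 of 20 were lower, beside 20.2%. The list holds fibroblast genes such as Dcn and Col1a1, so these counts say little of the state of the muscle. Against pericytes 1 of 11 was higher and 4 were lower, beside 7.5% and 13.2% of all genes. Fn1, fibronectin, stood at 73.5 CPM in the smooth muscle cells, 20.8 CPM in the pericytes, 1406 CPM in the normal fibroblasts and 1957 CPM in the contractile tumour fibroblasts. Of the 20 cell cycle genes of S and G2/M phase, 9 were at 0 in the smooth muscle cells and none reached 50 CPM.

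Of 11 cytokine and chemokine genes measured against normal fibroblasts 8 were lower and 1 was higher in the smooth muscle cells. Ccl11, eotaxin, stood at 288 CPM in the smooth muscle cells, 644 CPM in the pericytes and 1144 CPM in the normal fibroblasts, and within the members at 758 CPM in the 22 cells with at least 2 Kcnj8 and Abcc9 UMIs and 205 CPM in all other members. Kitl, the ligand of the stem cell factor receptor, was the higher one, at 190.2 CPM in the smooth muscle cells and 64.1 CPM in the normal fibroblasts. Hspb1 and Cryab, small heat shock proteins, were found in 80.4% and 88.7% of the smooth muscle cells. Hspb1 stood at 597 CPM in the smooth muscle cells, 145 CPM in the pericytes and 124 CPM in the normal fibroblasts, but at 1575 CPM in the endothelial cells. Cryab stood at 523 CPM in the smooth muscle cells, 447 CPM in the pericytes and 109.9 CPM in the normal fibroblasts. These genes were picked after their values were seen.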
